A study of Homo sapiens with 16 samples.

Results

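An siRNA against YES1 changed gene expression in MDA-MB-231 and SUM159PT cells in ways that partly differed between the 2 lines. The genes that changed in opposite directions are described here. The difference between lines was the interaction (SUM159PT siYES1 minus siNS) minus (MDA-MB-231 siYES1 minus siNS), fitted over all 16 libraries and called at an adjusted p under 0.05. It was called for 3757 of 16299 genes tested. A gene was counted as opposite where it was called in each line, with opposite signs, and in the interaction. There were 464 such genes among the 12689 tested in all 3 fits: 153 rose in MDA-MB-231 and fell in SUM159PT, and 311 fell in MDA-MB-231 and rose in SUM159PT. Opposite signs are what the rule asked for, so the signs and the 2 fold changes of these genes are a description.

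MDA-MB-231 and SUM159PT are human breast cancer cell lines that the labels call triple negative, with a WT genotype. Cells of each line were transfected using Lipofectamine2000 with an siRNA against firefly luciferase (siNS, the control) or against YES1 (siYES1), and RNA was taken at 48 h. Each of the 4 groups had 4 libraries that the design text calls technical replicates, so p-values measure only the spread between these libraries. The growth protocol gives RPMI for MDA-MB-231 and a Ham medium for SUM159PT, so line and medium cannot be told apart. The column names of the SUM159PT table start with S149, while its titles give SUM159PT, which is the name used here. Whether the 2 names mean the same line was not tested.

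YES1 is a member of the Src family of non-receptor tyrosine kinases, which carry signals from receptor kinases and integrins to the cytoskeleton, to growth pathways and to transcription. Among its known substrates is the transcriptional coactivator YAP1. An siRNA lowers the messenger RNA of its target, and the messages of other genes measured at 48 h can reflect direct and later effects. Effects of the siRNA outside YES1 cannot be told apart here from effects of lower YES1. In bulk RNA, fewer cells in a state, such as S phase, and less RNA per cell cannot be told apart.

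Levels are given as CPM, counts set to a fixed library size, with TMM factors set within each line, so they compare libraries of 1 line. YES1 (hg38 chr18:721588-812546, minus strand) stood at 72.5, 56.4, 63.1 and 59.7 CPM in the MDA-MB-231 siNS libraries and at 13.6, 14.6, 14.3 and 12.6 CPM with siYES1. In SUM159PT it stood at 98.98, 149.4, 151 and 135 CPM with siNS and at 15.8, 15.7, 19.4 and 17.98 CPM with siYES1. The groups did not overlap in either line, and 21.9% and 12.9% of the YES1 message remained. Its log2 fold change was -2.20 ± 0.09 (SE) in MDA-MB-231 and -2.96 ± 0.14 in SUM159PT. The difference between lines was -0.76 ± 0.17 (edgeR adjusted p = 0.00287), so the target itself fell further in SUM159PT. Whether the depth of the knockdown has a part in the other differences was not tested.

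The libraries held 15680459 to 23451253 counts. SUM159PT siNS replicate 1 stood apart from its group. Its counts differed from each of the other 3 by a chi-squared of 33.1 to 49.6 for each degree of freedom, and those 3 from each other by 6.75 to 13.2. In MDA-MB-231 siNS it was 18.9 to 26.1 for pairs with replicate 1 or 2 and 4.41 between replicates 3 and 4, and in the siYES1 groups 2.21 to 7.73. Among 282 genes chosen by the naming rule and tested in SUM159PT, leaving it out ended 7 of 209 calls in that line, added 18 and turned the sign of 13, none of which was called with or without it. The spread between replicates that edgeR fitted, as a coefficient of variation, was smaller in MDA-MB-231 (0.0988) than in SUM159PT (0.165). Markers of cell type were mixed. CDH1, which encodes E-cadherin, was at most 1.18 CPM in all 16 libraries, ESR1 (oestrogen receptor) at most 1.34 CPM and PGR (progesterone receptor) at most 0.118 CPM, while the mesenchymal filament gene VIM ran from 409 to 2329 CPM. The receptor gene ERBB2 ran from 102.6 to 124.8 CPM in MDA-MB-231 and from 46.9 to 79.3 CPM in SUM159PT. The mesenchymal genes CDH2 and SPARC were at most 2.30 and 4.87 CPM in MDA-MB-231 and at least 201 and 1329 CPM in SUM159PT. Other epithelial genes were present in MDA-MB-231, where the claudin CLDN4 ran from 150.1 to 191.7 CPM with siNS and EPCAM from 19.97 to 28.5 CPM. The 7 immune markers summed to at most 10.2 CPM in any library, most of it CD14 (7.36 to 9.50 CPM in MDA-MB-231 siNS), and CD3E (T cells) was at most 0.0626 CPM. The 6 endothelial markers summed to 15.9 to 24.1 CPM in SUM159PT siNS and 1.73 to 2.33 CPM with siYES1, of which the receptor KDR made up 12.6 to 21.7 CPM and 1.41 to 1.85 CPM, and CDH5 was at most 0.214 CPM. The part of these markers in other results was not tested.

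Of the genes tested, the interaction called 23.1%: the response was higher in SUM159PT for 1844 genes (11.3%) and lower for 1913 (11.7%). Where genes of a list are counted as higher or lower in SUM159PT, the response to siYES1 is meant, not the level. In the fits of single lines, 24.9% of the genes tested rose and 27.5% fell in MDA-MB-231, against 17.8% and 19.0% in SUM159PT. The even split in SUM159PT depended on the scaling: 2575 genes rose and 2749 fell there, and with total counts 1397 and 4163. Opposite genes were a minor part of these calls. Of the 3757, 464 were opposite, 540 moved the same way in both lines with different sizes, 773 rose and 773 fell in MDA-MB-231 alone, 460 rose and 496 fell in SUM159PT alone, and 251 were called in neither line. Of those called in 1 line alone, 89 were not tested in SUM159PT and 76 not in MDA-MB-231. Whatever the interaction, 2596 genes were called with the same sign in both lines.

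The balance of the interaction depended on how libraries were scaled. With factors set within each line 49.1% of the calls were higher in SUM159PT. With TMM factors set over all 16 libraries the share was 63.6%, and with total counts alone 33.1%. The median log2 difference over all genes tested was -0.07, and these scalings moved it by 0.10 and -0.12. Under all 4 scalings tried 258 of the 464 were opposite, 103 that rose and 155 that fell in MDA-MB-231.

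**Figure D1:**
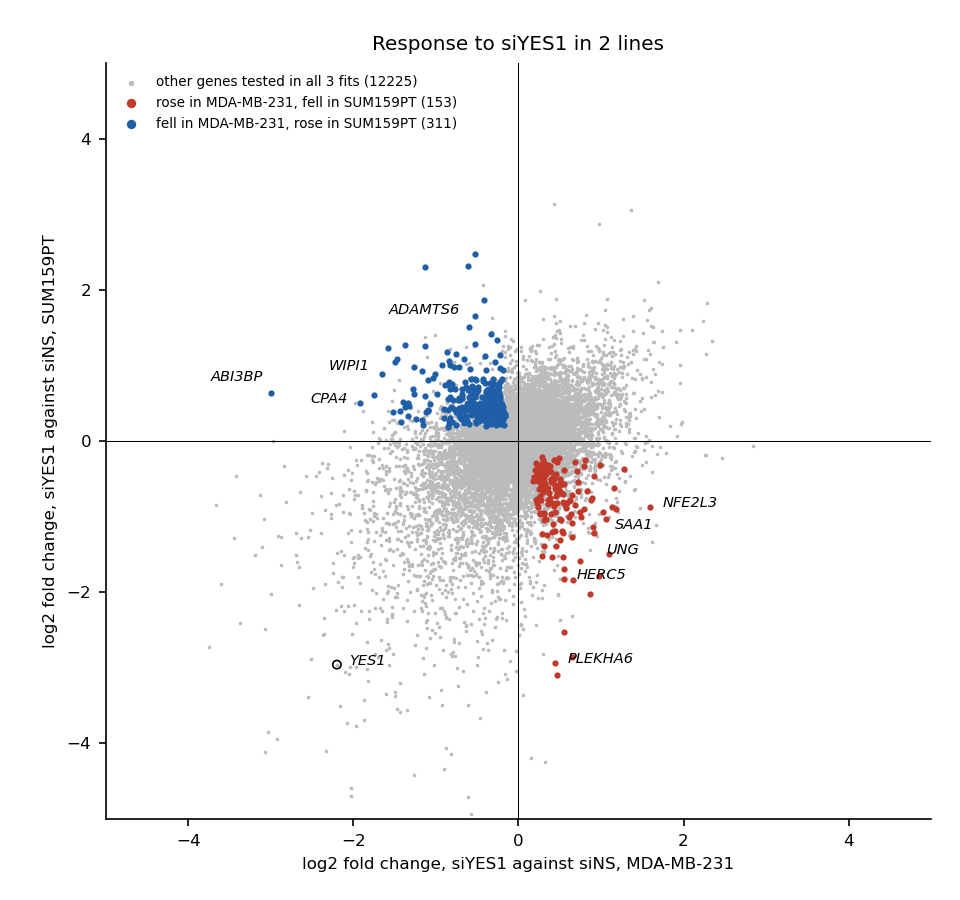
Log2 fold change with siYES1 in MDA-MB-231 (x axis) against SUM159PT (y axis) for 12689 genes, 1 point a gene. Red points are the 153 genes that rose in MDA-MB-231 and fell in SUM159PT, blue points the 311 that fell and rose, and the circle is YES1, which fell in both; 5 genes lie outside the axes of ±5.

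The 464 genes were 3.66% of the genes tested in all 3 fits, 1.21% in the first direction and 2.45% in the second. Of them 452 were coding. Their changes were mostly small. Genes that rose in MDA-MB-231 had a median log2 fold change of 0.43 there and -0.68 in SUM159PT, and genes that fell in MDA-MB-231 had -0.42 and 0.47. Over both kinds the size ran from 0.16 to 3.00 in MDA-MB-231 and from 0.18 to 3.09 in SUM159PT. Point estimates reached 1.5-fold in both lines for 71 genes and 2-fold in both for 8, among them LURAP1L, RAB3B, KRT34, IL12A and AC091182.2, which fell in MDA-MB-231 and rose in SUM159PT, and KRT86 and TLE2, which did the reverse. When each line and the interaction were tested against a 1.5-fold change with glmTreat, 6 genes passed in all 3 fits, among them LURAP1L, CCBE1, ADPRHL1, FBXO32 and SAA1.

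Near-identical copies limit some of these names. KRT86 and KRT34 belong to keratin families with near-identical copies, SAA1 has a close copy in SAA2, and AKR1C1 has close copies in its own family, so their counts are uncertain. For 343 of the 464 genes the ranges of CPM with siNS and siYES1 were separate in both lines. Over all 12689 genes, 449 (3.54%) had such libraries with opposite order. The non-overlap follows in part from the choice of called genes and adds no support to it. For the 12 strongest coding genes of each kind given below, the rule itself asked for non-overlap and for a call in the interaction. Their separate libraries and small p-values are thus a description.

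Among genes that fell in MDA-MB-231 and rose in SUM159PT was CCBE1 (chr18:59430939-59697662, minus strand), which encodes a secreted protein needed for the processing of VEGF-C and for lymphatic vessel growth. Its libraries read 77.3, 65.8, 56.9 and 67.2 CPM with siNS and 27.5, 29.9, 28.6 and 26.2 CPM with siYES1 in MDA-MB-231. The SUM159PT libraries read 87.9, 104, 126 and 127 CPM and 214, 225, 218 and 226 CPM. All libraries of the 2 treatments stood apart in each line, which the rule that chose CCBE1 asked for. The difference between lines was 2.24 ± 0.15 (edgeR adjusted p = 1.31e-09). CCBE1 passed the 1.5-fold test in all 3 fits.

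Other genes of this kind serve protein turnover, autophagy and signalling. WIPI1, which binds phosphoinositides on forming autophagosomes, read 60.1, 57.7, 40.8 and 48.9 CPM with siNS and 18.2, 15.05, 14.3 and 19.1 CPM with siYES1 in MDA-MB-231, and 41.6, 73.4, 62.5 and 73.2 CPM and 112, 121, 116 and 117 CPM in SUM159PT. The 4 treated libraries were below the 4 controls in MDA-MB-231 and above them in SUM159PT. The log2 fold changes were -1.65 ± 0.13 and 0.89 ± 0.14. FBXO32, the ubiquitin ligase subunit atrogin-1, had -0.84 ± 0.08 and 1.06 ± 0.14, and ADPRHL1, a relative of the ADP-ribosylhydrolases, -0.93 ± 0.11 and 1.01 ± 0.10. TRIB3, a pseudokinase of the stress response, had -0.76 ± 0.10 and 1.15 ± 0.14.

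Others of the 12 strongest coding genes of this kind, by the smaller of the 2 fold changes among genes at 5 CPM or more without overlapping libraries, were of mixed function. They were the vesicle calcium sensor SYT1 (log2 fold changes -1.17 and 0.93 in MDA-MB-231 and SUM159PT), TRIM29 (-1.01 and 0.89), the histone demethylase KDM7A (-0.84 and 0.78), the membrane skeleton adaptor ANK2 (-0.77 and 0.98), GFPT2, which starts the hexosamine pathway (-0.89 and 0.74), and HIF1A. Each of the 12 was opposite in all 25 alternatives without a size threshold.

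**Figure D2:**
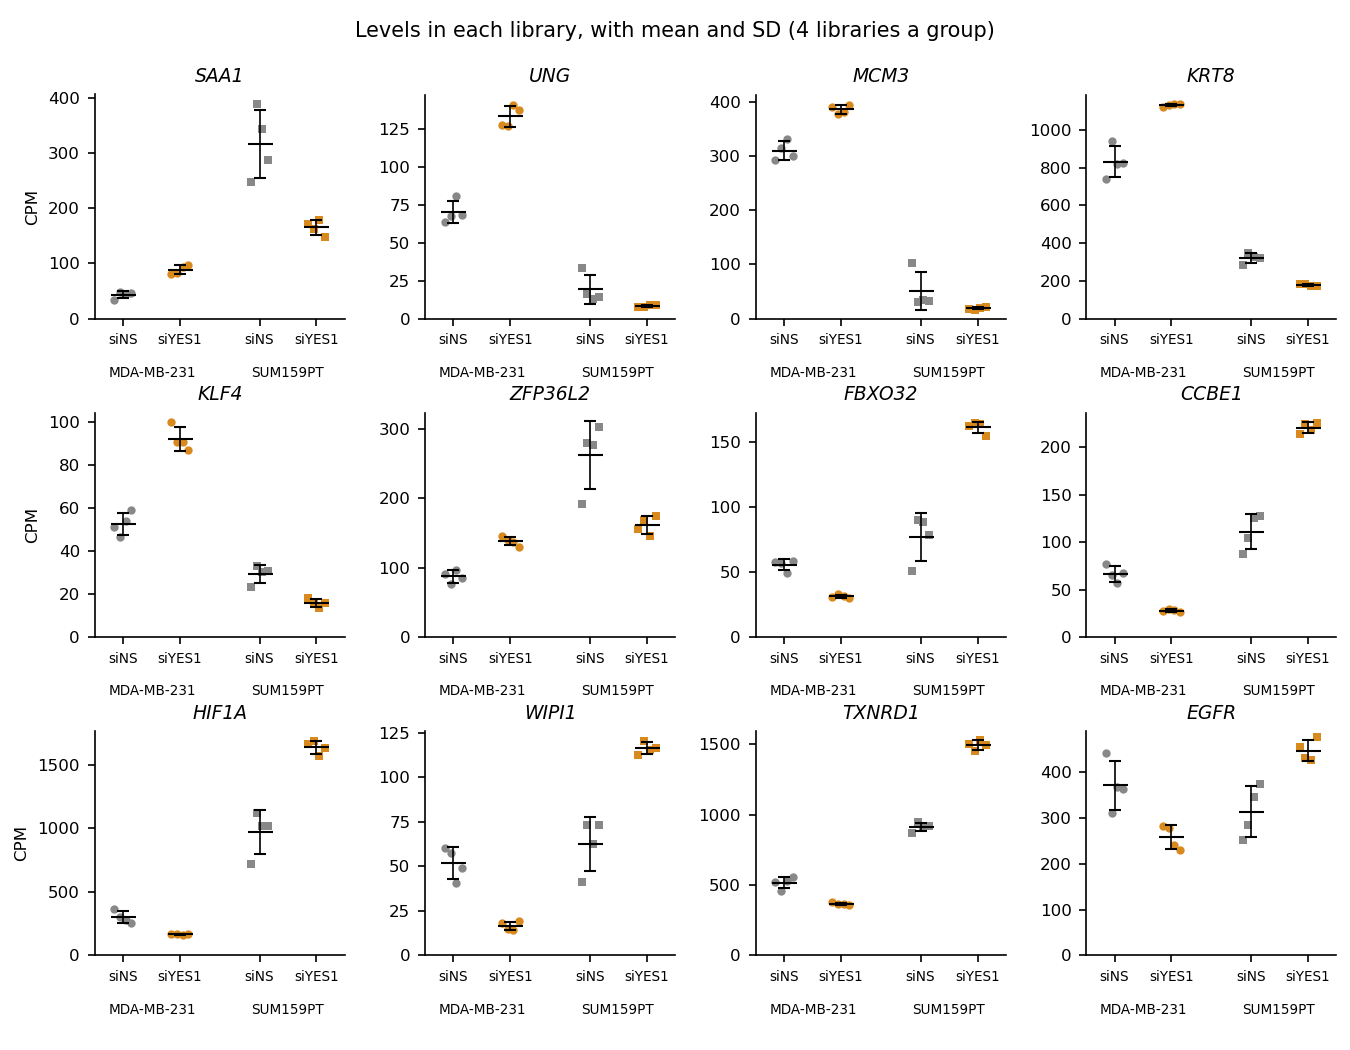
CPM of 12 genes in each of the 16 libraries, with the mean and SD of 4 libraries a group; grey is siNS and orange siYES1, circles are MDA-MB-231 and squares SUM159PT, and each panel starts at 0. SAA1, UNG, MCM3, KRT8, KLF4 and ZFP36L2 rose in MDA-MB-231 and fell in SUM159PT, and the other 6 genes did the reverse. SUM159PT siNS replicate 1 stands far above its group for UNG and MCM3 and is the lowest of its group for the rest.

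HIF1A and its targets differed between the lines. HIF-1 alpha is the oxygen-regulated subunit of the factor that turns on glycolysis, matrix-modifying enzymes and vessel growth when oxygen is low, and its protein is controlled mainly by degradation. HIF1A (chr14:61695513-61748259, plus strand) stood at 363, 304, 276 and 258 CPM with siNS and 171, 165, 164 and 166 CPM with siYES1 in MDA-MB-231. In SUM159PT it stood at 719.6, 1121, 1017 and 1021 CPM and 1660, 1682, 1566 and 1632 CPM. The libraries did not overlap in either line. The difference between lines was 1.60 ± 0.15 (edgeR adjusted p = 1.53e-07), and without SUM159PT siNS replicate 1 the SUM159PT log2 fold change was 0.62 in place of 0.75.

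Of the 32 hypoxia targets tested, HIF1A included, 24 responded higher in SUM159PT and 2 lower, with a median difference of 0.79 against -0.07 over all genes. In MDA-MB-231 2 rose and 24 fell (median -0.57), and in SUM159PT 14 rose and 6 fell (median 0.27). The differences held with total counts (21 higher and 3 lower) and without SUM159PT siNS replicate 1 (24 and 2). The SUM159PT median was smaller in both, at 0.10 with total counts (9 rose and 7 fell) and 0.12 without that library (14 rose and 8 fell). The list held 9 opposite genes, all of which fell in MDA-MB-231. With total counts 6 were opposite.

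The opposite hypoxia targets serve the matrix, the mitochondria and growth control. Matrix and collagen enzymes were the lysyl oxidases LOXL2 (log2 fold changes -0.58 and 0.41 in MDA-MB-231 and SUM159PT) and LOX (-0.26 and 0.43), which crosslink collagen, and P4HA1 (-0.63 and 0.41), a collagen prolyl hydroxylase. BNIP3L, a mitophagy receptor, had -0.23 and 0.71, and INSIG2, which holds back sterol synthesis, -0.83 and 0.58. ADM, the vessel-dilating peptide adrenomedullin, had -0.28 and 1.05, DDIT4, an inhibitor of mTORC1, -1.13 and 0.59, and the clock repressor BHLHE41 -0.55 and 0.39. LOX, P4HA1, DDIT4 and BHLHE41 were not opposite under all 4 scalings, and BHLHE41 lost its SUM159PT call without SUM159PT siNS replicate 1.

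Individual libraries show how far such genes separated. P4HA1 read 111, 109, 96.7 and 81.5 CPM with siNS and 61.8, 67.1, 67.9 and 62.5 CPM with siYES1 in MDA-MB-231, and 108, 189.8, 173 and 163 CPM and 214, 219, 216 and 193 CPM in SUM159PT. INSIG2 read 35.2, 37.5, 40.4 and 41.1 CPM and 21.7, 22.3, 23.5 and 19.6 CPM in MDA-MB-231, and 29.7, 28.96, 31.04 and 31.999 CPM and 56.8, 46.2, 39.9 and 40.1 CPM in SUM159PT. Both genes were without overlap in each line, but SUM159PT siNS replicate 1 was the lowest of its group for P4HA1, and without it the SUM159PT log2 fold change was 0.25 in place of 0.41. Other hypoxia targets changed in MDA-MB-231 alone or more there: STC1, a secreted glycoprotein, had -2.11 and 0.13, with no call in SUM159PT, where its sign turned without siNS replicate 1 (-0.09), and the carbonic anhydrase CA9 fell in both lines, by 3.67 and 0.85 on the log2 scale. CA9 stood low in MDA-MB-231, at 2.31 to 4.75 CPM with siNS and 0.125 to 0.320 CPM with siYES1, so the size of its fall there is uncertain.

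The 250 bases before the start of 2 of these genes are shown because they hold the core word of the hypoxia response element, ACGTG on either strand, which is part of the sequence that HIF-1 binds and which also lies within the E-box CACGTG. They are from RefSeq on GRCh38.p14, the minus strand at chr10:73096867-73097116 for P4HA1 and the minus strand at chr5:122078260-122078509 for LOX, 5′ to 3′, with the words in capitals (CACGT is the word on the other strand).
P4HA1: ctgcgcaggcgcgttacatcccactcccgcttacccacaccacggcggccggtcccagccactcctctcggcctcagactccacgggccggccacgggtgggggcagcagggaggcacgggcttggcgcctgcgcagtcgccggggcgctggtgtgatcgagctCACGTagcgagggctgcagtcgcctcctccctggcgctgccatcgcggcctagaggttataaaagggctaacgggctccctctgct
LOX: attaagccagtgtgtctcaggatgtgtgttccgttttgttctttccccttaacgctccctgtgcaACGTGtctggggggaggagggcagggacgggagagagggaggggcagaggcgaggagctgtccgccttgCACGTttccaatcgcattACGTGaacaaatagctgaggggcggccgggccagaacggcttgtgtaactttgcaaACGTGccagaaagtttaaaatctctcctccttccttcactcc
P4HA1 holds 1 such word, 86 bases before the start, and LOX holds 4, at 185, 116, 98 and 42 bases before it. The word stood in 21.4% of the 35116 promoters of the table and in 25.6% of those of coding genes tested. Its presence thus describes these sequences and does not mark a site in use.

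Glycolysis genes leaned the same way. Of 22 tested, 11 responded higher in SUM159PT and 0 lower by edgeR (also 0 lower at an unadjusted p under 0.05, with DESeq2 and with voom), with a median difference of 0.35. The medians were -0.13 in MDA-MB-231 and 0.31 in SUM159PT. With total counts 5 were higher, and the SUM159PT median was 0.14. HK1, a hexokinase, had log2 fold changes of -0.34 and 0.50, and PDK1, a kinase that shuts pyruvate out of the citric acid cycle, -0.31 and 0.35. HK1 was opposite under all 4 scalings and PDK1 was not.

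Stress and cholesterol genes leaned the same way. Of 32 ATF4 targets and amino acid supply genes, 12 were higher in SUM159PT and 4 lower, with medians of 0.12 and 0.55 in MDA-MB-231 and SUM159PT. The opposite members were TRIB3, CTH, which makes cysteine from cystathionine (-0.57 and 0.52), the leucine sensor SESN2 (-0.53 and 0.68) and the transcription factor ATF3 (-0.34 and 0.67). TRIB3 was opposite under all 4 scalings and the other 3 lost their SUM159PT call with total counts. Of 25 unfolded protein response genes 10 were higher and 0 lower by edgeR (also 0 at an unadjusted p under 0.05, with DESeq2 and with voom), with no opposite member. The chaperone HSPA5 fell in MDA-MB-231 and was not called in SUM159PT (-0.79 and -0.01). Without SUM159PT siNS replicate 1 it was called there too, at -0.17.

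Of 25 genes of cholesterol synthesis and uptake 10 were higher in SUM159PT and 0 lower by edgeR (also 0 at an unadjusted p under 0.05, with DESeq2 and with voom), with a median difference of 0.41, or 0.19 without SUM159PT siNS replicate 1. The opposite members were SQLE, the squalene epoxidase (-0.68 and 0.69), and SC5D, a late step of the pathway (-0.26 and 0.34). Neither was opposite with total counts as the scaling, and without SUM159PT siNS replicate 1 SQLE rose there by 0.45. Of 22 fatty acid and glycerolipid synthesis genes 10 were higher in SUM159PT and 4 lower, but with total counts 6 were higher and 7 lower. The median difference of this list was 0.18, or 0.07 with total counts. Its member ELOVL6, an elongase, fell and rose (-0.46 and 0.42), while the acyl-CoA synthetase ACSL1 (0.28 and -0.46) and the acyltransferase GPAM (0.44 and -0.25) rose and fell. ACSL1 alone of these 3 was opposite under all 4 scalings.

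The lysosome and autophagy list had 13 of 35 genes higher in SUM159PT and 2 lower, with a median difference of 0.27. Without SUM159PT siNS replicate 1, 11 were higher and 3 lower (median 0.11), and with total counts 9 and 3 (median 0.16). Besides WIPI1, the opposite members of the list were the protease cathepsin B, CTSB, and TFE3, a transcription factor that turns on lysosomal genes. CTSB read 543, 559.5, 557 and 563 CPM with siNS and 443, 470.0, 451 and 437 CPM with siYES1 in MDA-MB-231, against 507, 767, 693 and 684 CPM and 1179, 1229, 1126 and 1145 CPM in SUM159PT. The libraries did not overlap, and the difference between lines was 1.12 ± 0.12 (edgeR adjusted p = 1.21e-06). TFE3 had -0.20 and 0.82 and was opposite in 22 of 25 alternatives.

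Vesicle coat genes were described in 2 lists written after the values were seen. Of 26 COPII and COPI coat genes, which carry cargo between the endoplasmic reticulum and the Golgi, 14 were higher in SUM159PT and 0 lower by edgeR (also 0 at an unadjusted p under 0.05, with DESeq2 and with voom). The opposite genes were 5: SEC23A (-0.37 and 0.48), SEC23B (-0.19 and 0.28), SEC24D (-0.86 and 0.41), the cargo receptor LMAN1 (-0.22 and 0.40) and the coatomer subunit ARCN1 (-0.20 and 0.28). SEC23A was opposite in all 25 alternatives and the other 4 in 14 to 20, and with total counts 1 gene of the list was opposite. Of 13 ESCRT-III and VPS4 genes, which cut membrane necks, 4 were higher and 1 lower, and CHMP2B (-0.57 and 0.81), CHMP1B (-0.34 and 0.55) and CHMP4B (-0.27 and 0.21) were opposite, in 25, 25 and 17 of the alternatives.

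NRF2 targets answer oxidative and electrophile stress. Of 22 tested, 11 were higher in SUM159PT and 0 lower by edgeR (also 0 at an unadjusted p under 0.05, with DESeq2 and with voom), and 5 were higher with total counts. The median difference was 0.31. TXNRD1, the thioredoxin reductase, read 522, 461, 527 and 555 CPM with siNS and 379.5, 364, 363 and 357 CPM with siYES1 in MDA-MB-231, and 872, 947, 909 and 921 CPM and 1502, 1449, 1533 and 1492 CPM in SUM159PT. The groups were separate in both lines, and its difference was 1.21 ± 0.09 (edgeR adjusted p = 7.95e-09). AKR1C1, an aldo-keto reductase, had -0.86 and 0.56. HMOX1, the haem oxygenase, was called in SUM159PT alone, with -0.02 and 0.90.

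**Figure D3:**
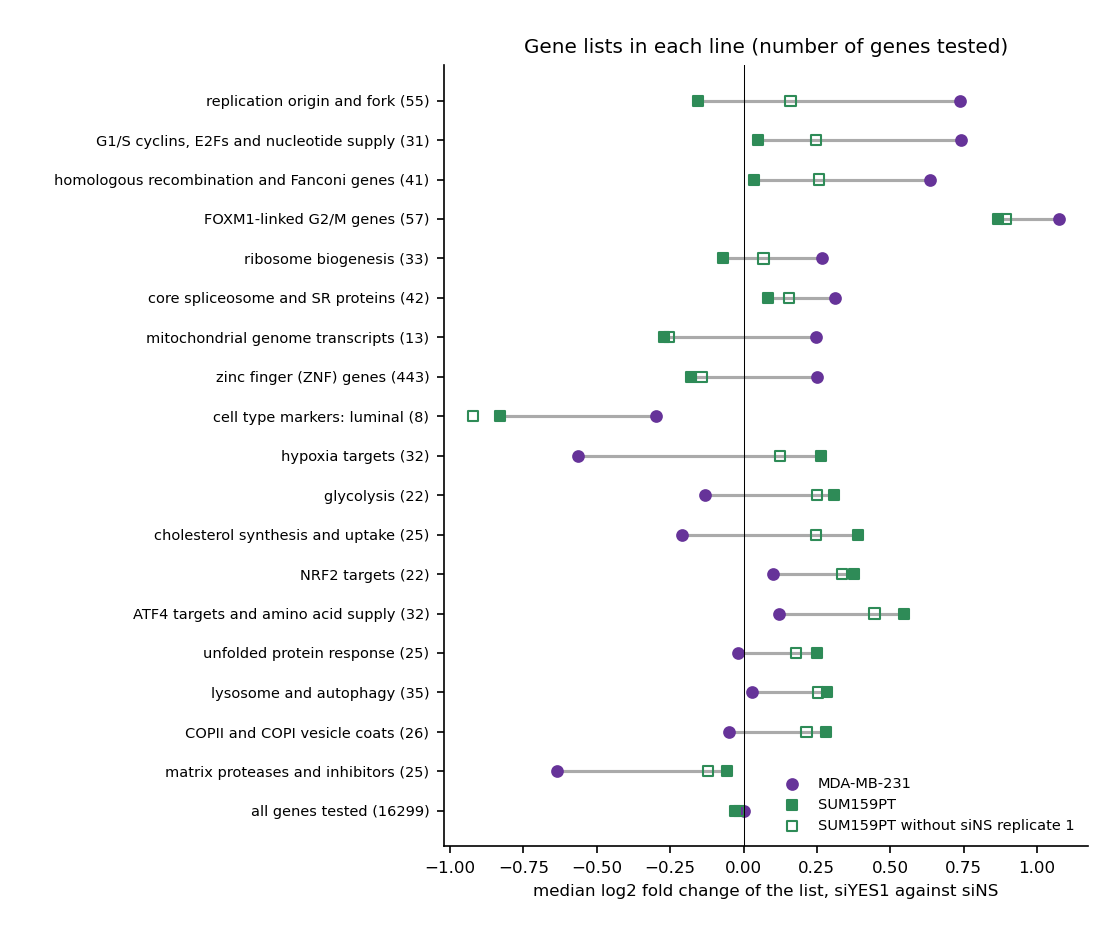
Median log2 fold change of 18 gene lists and of all genes tested, in MDA-MB-231 (circles) and SUM159PT (filled squares), with open squares for SUM159PT without siNS replicate 1 and the number of genes tested in brackets. The replication, G1/S and recombination lists lie at 0.63 to 0.74 in MDA-MB-231 and at -0.15, 0.05 and 0.04 in SUM159PT, or at 0.16, 0.25 and 0.26 without siNS replicate 1. Hypoxia targets lie at -0.57 in MDA-MB-231 and 0.27 in SUM159PT, or 0.12 without it.

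Receptor and kinase signalling held several opposite genes. EGFR (chr7:55019021-55211628, plus strand), the epidermal growth factor receptor, which Src family kinases act with, read 442, 312, 368 and 363 CPM with siNS and 283, 278, 242 and 229.8 CPM with siYES1 in MDA-MB-231. In SUM159PT it read 252, 285, 347 and 373 CPM and 456, 431, 426 and 477 CPM. The libraries did not overlap in either line, and the log2 fold changes were -0.53 ± 0.09 and 0.50 ± 0.11, a difference of 1.03 ± 0.16 (edgeR adjusted p = 6.91e-05). Of 14 genes of the EGFR family, its ligands and its regulators, 6 were higher in SUM159PT and 1 lower. LRIG1, which lowers receptor levels, fell in both lines (-2.13 and -0.72), and NRG1, a ligand of ERBB3 and ERBB4, fell in MDA-MB-231 and was not called in SUM159PT (-0.81 and 0.08, and -0.09 there with total counts).

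Other kinases of the YES1 family did not share one pattern. SRC had log2 fold changes of -0.66 ± 0.11 in MDA-MB-231, where it fell, and -0.03 ± 0.09 in SUM159PT, a difference of 0.63 ± 0.15 (edgeR adjusted p = 0.00419). FYN fell in both lines, by 1.04 and 0.20 on the log2 scale, with a difference of 0.83 ± 0.11. PTPN1, a phosphatase that can act on Src, was the 1 opposite gene of 12 tested in this list (-0.17 and 0.33), and it was opposite in 12 of 25 alternatives. Of 20 genes of the AP-1, EGR and MYC list 8 were higher in SUM159PT and 3 lower. The immediate-early factor JUN (-0.40 and 0.58) and IER3 (-0.38 and 0.51), a target of ERK and NF-kB, fell and rose, while PHLDA1 (0.27 and -0.58) rose and fell.

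FOS and EGR1, other immediate-early factors, fell in SUM159PT and were not called in MDA-MB-231 (0.28 and -2.08 for FOS and -0.26 and -2.33 for EGR1). With total counts EGR1 was called lower in MDA-MB-231 too (edgeR adjusted p = 0.031), as was MYC (adjusted p = 0.021). Their differences were -2.37 ± 0.25 and -2.07 ± 0.21. MYC rose in SUM159PT and was not called in MDA-MB-231 (-0.15 and 0.38), with a difference of 0.53 ± 0.10 (edgeR adjusted p = 0.00066). Of the survival regulators, BCL2L1 (-0.57 and 0.58), which encodes BCL-XL, and XIAP (-0.26 and 0.33), a caspase inhibitor, were the opposite genes of 21 in the BCL2 family list. BCL2L1 read 410.4, 465, 429 and 418 CPM and 287, 284, 296 and 305 CPM with siNS and siYES1 in MDA-MB-231, and 179, 223, 219.8 and 200.3 CPM and 306, 316, 303 and 307 CPM in SUM159PT, with no overlap. Other opposite signalling genes were NTN4, a netrin (-0.57 and 0.70), the Wnt receptors FZD1 (0.53 and -0.56) and FZD5 (-0.39 and 0.42), and the inhibitory SMAD7 (0.32 and -0.44). XIAP, FZD5 and SMAD7 were not opposite under all 4 scalings.

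Matrix genes were split between the 2 directions. CPA4, a secreted carboxypeptidase, read 244, 235, 206 and 256 CPM with siNS and 59.6, 62.3, 62.9 and 66.2 CPM with siYES1 in MDA-MB-231, and 148, 136, 138 and 143 CPM and 185, 199.7, 217 and 203 CPM in SUM159PT. Its libraries did not overlap, and the difference of 2.42 ± 0.11 had an edgeR adjusted p of 3.51e-12. ABI3BP, a matrix protein, read 38.1, 25.6, 24.2 and 27.1 CPM and 3.77, 3.59, 4.51 and 2.62 CPM in MDA-MB-231, and 94.8, 158, 139.8 and 141 CPM and 194, 212, 207 and 218 CPM in SUM159PT. It had the greatest positive difference among coding genes at 5 CPM or more in each line, 3.63 ± 0.23.

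Of 25 matrix proteases and inhibitors 11 were higher in SUM159PT and 4 lower. ADAMTS6, a secreted metalloprotease, fell and rose (-0.60 and 1.51), while the membrane metalloprotease MMP15 (0.47 and -0.82) and SERPINE2, an inhibitor of thrombin and urokinase (0.89 and -0.76), rose and fell. SERPINE2 read 9.58, 11.1, 9.67 and 10.5 CPM and 19.4, 20.6, 18.2 and 18.4 CPM with siNS and siYES1 in MDA-MB-231, and 38.3, 47.6, 48.2 and 46.5 CPM and 28.7, 28.1, 25.1 and 25.5 CPM in SUM159PT, with no overlap. The matrix genes THBS1 (0.99 and -0.32), COL6A3 (0.38 and -0.36) and COL4A2 (0.20 and -0.38), rose and fell. THBS1 and COL4A2 were not opposite under all 4 scalings.

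CTGF and THBS1 are also known targets of YAP1, whose own message rose in both lines (0.65 and 0.55), with a difference of -0.10 ± 0.12 (edgeR adjusted p = 0.574). Of 24 YAP/TAZ targets 5 were higher in SUM159PT and 6 lower. CTGF read 173, 156, 186 and 171 CPM and 268, 275, 264 and 269 CPM with siNS and siYES1 in MDA-MB-231, where the groups were apart. In SUM159PT it read 92.7, 23.7, 34.7 and 38.5 CPM and 22.9, 25.9, 23.1 and 25.9 CPM, which overlap. SUM159PT siNS replicate 1 was far above its group, and without it the SUM159PT log2 fold change was -0.42 in place of -0.96, and the difference between lines -1.06 in place of -1.60. DLC1, a GTPase-activating protein, fell and rose (-0.59 and 0.48), as did the actin-binding LIMA1 (-0.40 and 0.94) and the myosin light chain MYL6 (-0.35 and 0.41).

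Among genes that rose in MDA-MB-231 and fell in SUM159PT, SAA1, an acute-phase protein, stood first. SAA1 (chr11:18266174-18269977, plus strand) read 33.7, 48.9, 44.97 and 46.4 CPM with siNS and 81.5, 82.3, 93.7 and 97.7 CPM with siYES1 in MDA-MB-231. In SUM159PT it read 248, 388, 344 and 287 CPM and 171, 163, 179 and 147 CPM. The groups did not overlap in either line, and the difference was -1.97 ± 0.18 (edgeR adjusted p = 6.87e-08). NFE2L3, a relative of NRF2, read 106, 99.8, 107 and 96.6 CPM and 316, 323, 311 and 298 CPM in MDA-MB-231. In SUM159PT it read 7.56, 7.86, 6.73 and 10.95 CPM with siNS and 5.77, 5.12, 3.97 and 3.27 CPM with siYES1. Its difference was -2.48 ± 0.19.

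The other strongest genes of this kind, chosen by the same rule, included transcription and RNA regulators. KLF4, a Kruppel-like factor, had log2 fold changes of 0.80 ± 0.08 and -0.89 ± 0.14, and ZFP36L2, which directs the decay of AU-rich messages, 0.65 ± 0.08 and -0.71 ± 0.12. AGFG2 (0.69 and -0.85), the nuclear envelope linker SYNE2 (0.72 and -0.66) and the arrestin-like ARRDC2 (0.61 and -0.79) were further members. The rest were SERPINE2, given above, the transcription factor E2F2, and UNG, CHAF1B and TONSL, which act in DNA replication and repair. All 12 were opposite in each of the 25 alternatives.

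PLEKHA6 had the second largest negative difference among coding genes at 5 CPM or more in each line and the largest among those that were opposite. It read 27.9, 21.1, 31.2 and 26.3 CPM with siNS and 38.3, 43.5, 32.2 and 32.2 CPM with siYES1 in MDA-MB-231, and 20.7, 26.95, 27.6 and 28.5 CPM and 3.53, 2.78, 4.23 and 3.09 CPM in SUM159PT. The rise in MDA-MB-231 was small, 0.45 ± 0.12, and the fall in SUM159PT was -2.93 ± 0.17. TP53INP1, a p53 target that promotes autophagy and cell death, had 0.53 ± 0.12 and -1.53 ± 0.44, and KIF7, a kinesin of Hedgehog signalling, 0.53 ± 0.14 and -1.19 ± 0.21.

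The partner keratins KRT8 and KRT18 of simple epithelia moved together. KRT8 read 739.5, 942, 819.5 and 827 CPM with siNS and 1122, 1133, 1137 and 1138 CPM with siYES1 in MDA-MB-231, and 283, 349.8, 328 and 321 CPM and 181, 183, 173 and 172 CPM in SUM159PT, with no overlap. KRT18 read 319, 436, 318 and 310.4 CPM and 415, 419, 440.0 and 451 CPM in MDA-MB-231, where the groups overlapped, and 126, 136, 125 and 121 CPM and 63.9, 63.01, 59.1 and 61.9 CPM in SUM159PT. The differences were -1.30 ± 0.11 for KRT8 and -1.35 ± 0.13 for KRT18 (edgeR adjusted p = 2.43e-08 and 1.34e-07). Of 8 luminal markers tested 4 responded lower in SUM159PT and 0 higher by edgeR (also 0 at an unadjusted p under 0.05, with DESeq2 and with voom). The list did not rise as a whole in MDA-MB-231, where 2 of 6 tested rose and 3 fell (median -0.30). KRT19 ran there from 875 to 1091 CPM with siNS and from 517 to 567 CPM with siYES1. In SUM159PT 0 of 7 rose and 5 fell (median -0.83). The summed level of the list ran from 2021 to 2564 CPM in MDA-MB-231 siNS and from 2132 to 2202 with siYES1. In SUM159PT it ran from 434 to 521 CPM and from 251 to 269. Of 10 mesenchymal markers 2 responded higher in SUM159PT and none was called lower, where 11.3% and 11.7% of all genes tested were.

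DNA replication was the list with the highest share of lower calls among those of 20 or more genes. Replication starts at origins licensed by the MCM2 to MCM7 helicase, and PCNA is the clamp that holds polymerases on DNA. Of 55 origin and fork genes tested, 38 were lower in SUM159PT and 0 higher by edgeR (1 higher at an unadjusted p under 0.05, and 0 with DESeq2 and with voom), with a median difference of -0.90 against -0.07 over all genes. In MDA-MB-231 51 rose and 1 fell, with a median of 0.74. In SUM159PT 5 rose and 5 fell, with a median of -0.15. Most members were thus called in MDA-MB-231 and not in SUM159PT, and 4 genes were opposite: MCM3, MCM4, PCNA and TIPIN.

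The SUM159PT values rested in part on siNS replicate 1. MCM3 read 103, 31.4, 35.2 and 32.3 CPM in SUM159PT siNS, with replicate 1 first, and 18.8, 16.7, 20.6 and 21.1 CPM with siYES1. PCNA read 85.2, 36.9, 29.6 and 35.7 CPM and 23.7, 22.6, 24.5 and 24.98 CPM, and MCM4 132, 54.7, 50.03 and 49.2 CPM and 39.6, 37.7, 45.9 and 40.2 CPM. In each of these genes replicate 1 was far above the other 3 control libraries, which in turn were above the 4 treated ones. In MDA-MB-231 MCM3 read 292, 314, 332 and 300.5 CPM with siNS and 391, 377, 381 and 395 CPM with siYES1, PCNA 139.6, 150.4, 139 and 124 CPM and 162, 171, 165 and 171 CPM, and MCM4 172, 147, 150.2 and 142 CPM and 227, 224, 215 and 230.0 CPM.

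The differences between lines were -1.70 ± 0.35 for MCM3, -1.24 ± 0.29 for PCNA and -1.36 ± 0.29 for MCM4 (edgeR adjusted p = 0.0012, 0.00329 and 0.00187). Without SUM159PT siNS replicate 1 the SUM159PT log2 fold changes went from -1.39 to -0.78 for MCM3, from -0.97 to -0.52 for PCNA and from -0.81 to -0.34 for MCM4. The differences between lines went to -1.09, -0.79 and -0.89. These 3 genes were still opposite, and TIPIN, a fork protection factor, lost its SUM159PT call (edgeR adjusted p = 0.096). The median of the list in SUM159PT then went from -0.15 to 0.16, with 13 genes risen and 4 fallen, and the median difference to -0.55, with 33 genes lower and 0 higher.

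The 250 bases before the starts of PCNA and MCM3 are shown because these genes carry the opposite change of the list and hold words of the E2F site, the element through which E2F factors turn on S phase genes. They are from RefSeq on GRCh38.p14, on the minus strand at chr20:5126623-5126872 and the minus strand at chr6:52284743-52284992, 5′ to 3′, with the words in capitals. The words searched on both strands were TTTCGCGC, TTTGGCGC, TTTCCCGC and GGCGGGAA, of which TTTCCCGC and the reverse of GGCGGGAA can overlap and share most letters.
PCNA: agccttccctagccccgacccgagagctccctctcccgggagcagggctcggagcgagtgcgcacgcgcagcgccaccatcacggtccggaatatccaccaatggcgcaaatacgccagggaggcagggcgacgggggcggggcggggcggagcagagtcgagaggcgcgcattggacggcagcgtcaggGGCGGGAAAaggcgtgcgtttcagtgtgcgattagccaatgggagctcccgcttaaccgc
MCM3: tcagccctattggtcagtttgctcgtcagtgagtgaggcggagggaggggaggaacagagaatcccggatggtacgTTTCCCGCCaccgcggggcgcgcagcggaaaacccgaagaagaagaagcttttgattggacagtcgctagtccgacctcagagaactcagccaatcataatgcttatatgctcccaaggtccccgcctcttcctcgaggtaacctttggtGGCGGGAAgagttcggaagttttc
In PCNA the overlapping words start 60 and 59 bases before the gene, and in MCM3 the words start at 174, 173 and 24 bases before it. Such a word stood in 5.03% of all promoters in the table and in 7.68% of those of coding genes tested. Its presence describes these sequences and does not mark a site in use.

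Genes of entry into S phase also responded lower in SUM159PT more often than higher. Of 31 G1/S cyclin, E2F and nucleotide supply genes 19 were lower and 2 higher (17 and 2 without SUM159PT siNS replicate 1). In MDA-MB-231 26 rose and 2 fell (median 0.74), and in SUM159PT 13 rose and 5 fell (median 0.05). The SUM159PT median was 0.25 without siNS replicate 1 (15 rose and 5 fell) and -0.12 with total counts. E2F2 read 8.47, 8.35, 10.6 and 9.59 CPM with siNS and 15.4, 15.1, 12.8 and 15.04 CPM with siYES1 in MDA-MB-231, and 20.9, 8.92, 9.20 and 6.78 CPM and 5.02, 5.07, 5.03 and 4.00 CPM in SUM159PT. UNG, the uracil-DNA glycosylase, read 63.9, 68.03, 80.6 and 68.3 CPM and 128, 127, 141 and 138 CPM in MDA-MB-231, and 33.5, 16.5, 13.2 and 14.3 CPM and 8.02, 7.79, 8.94 and 8.76 CPM in SUM159PT. Both were without overlap in each line, and without SUM159PT siNS replicate 1 the SUM159PT log2 fold change was -0.81 for E2F2 and -0.82 for UNG, in place of -1.27 and -1.21.

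CHAF1B, a subunit of the histone chaperone CAF-1, had log2 fold changes of 0.65 ± 0.08 and -1.08 ± 0.23, and TONSL, which acts at stalled forks, 0.61 ± 0.08 and -1.004 ± 0.20. Cyclin E2, CCNE2, had 0.75 ± 0.13 and -1.01 ± 0.37, but it was not opposite under all 4 scalings, and without SUM159PT siNS replicate 1 its SUM159PT call was lost (edgeR adjusted p = 0.14). E2F1 rose in MDA-MB-231 (0.80 ± 0.10) and was not called in SUM159PT (-0.30 ± 0.38, edgeR adjusted p = 0.572). Without SUM159PT siNS replicate 1 its sign turned there (0.37, edgeR adjusted p = 0.155) and the call of its difference between lines was lost (-0.44 in place of -1.10, edgeR adjusted p = 0.135 in place of 0.0483). Of 41 homologous recombination and Fanconi genes 13 were lower in SUM159PT and 0 higher by edgeR (also 0 at an unadjusted p under 0.05, with DESeq2 and with voom), and 23 were lower with total counts. In SUM159PT 9 rose and 2 fell (median 0.04), and without siNS replicate 1 17 rose and 3 fell (median 0.26). The list held no opposite gene, and 1 without that library.

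**Figure D4:**
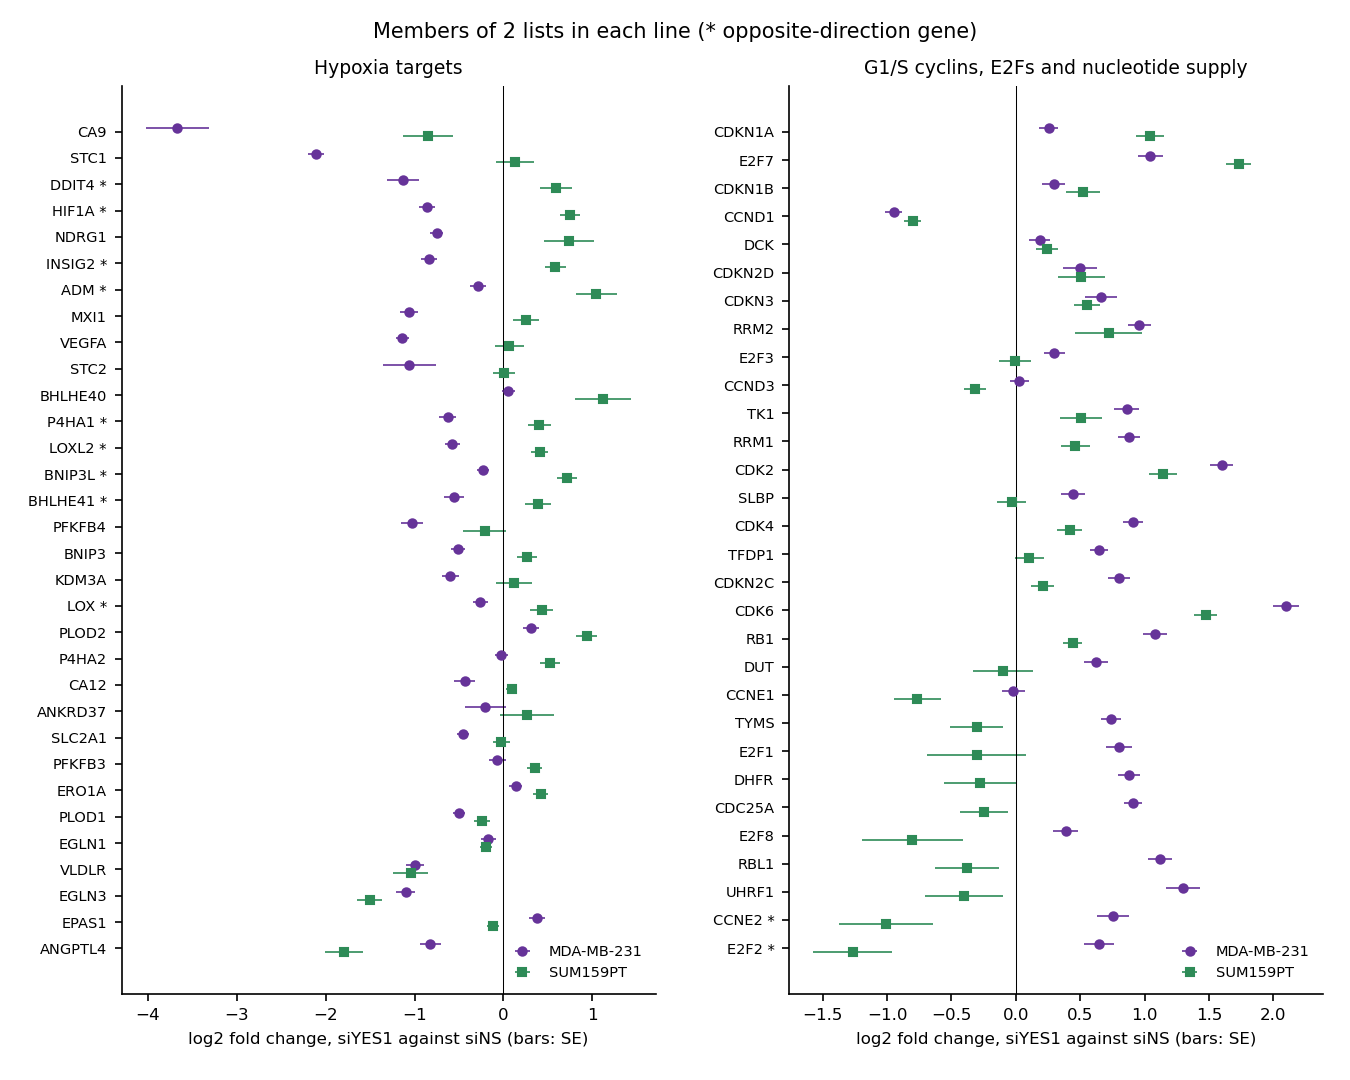
Log2 fold changes with siYES1 and their SE for the members of the hypoxia list (left) and the G1/S list (right), circles for MDA-MB-231 and squares for SUM159PT, sorted by the difference between lines, with an asterisk at opposite genes. Of the hypoxia targets 24 fell in MDA-MB-231, and of the G1/S genes 26 rose there.

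Mitotic genes differed less between the lines. Of 57 FOXM1-linked G2/M genes 56 rose in MDA-MB-231 and 51 in SUM159PT, with medians of 1.07 and 0.87, and 7 were lower in SUM159PT, 1 higher and 0 opposite. With total counts 17 were lower. PLK1, a mitotic kinase, had 1.60 ± 0.07 and 1.53 ± 0.13, a difference of -0.08 ± 0.16 (edgeR adjusted p = 0.768). FOXM1 itself rose in MDA-MB-231 (0.87 ± 0.08) and was not called in SUM159PT (0.29 ± 0.17), with a difference of -0.58 ± 0.19 (edgeR adjusted p = 0.0322). Without SUM159PT siNS replicate 1 it rose there too, by 0.50, and the difference was -0.38. CCND1, cyclin D1, fell in both, with a difference of 0.15 ± 0.09 (edgeR adjusted p = 0.243), and CDKN1A, the inhibitor p21, rose more in SUM159PT (0.26 and 1.04).

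Zinc finger genes made up a visible part of the lower calls. Many encode DNA-binding repressors with a KRAB domain that recruit TRIM28. Of 443 tested 100 were lower in SUM159PT and 6 higher, with a median difference of -0.43. In MDA-MB-231 188 rose and 37 fell, and in SUM159PT 27 rose and 61 fell. With total counts 13 rose and 104 fell in SUM159PT, and 139 were lower in the difference. The list held 11 opposite genes, 9 of which rose in MDA-MB-231, among them ZNF611 (0.90 and -1.14), ZNF585B (0.45 and -1.19) and ZNF865 (0.34 and -0.36). Over all genes tested in all 3 fits 3.66% were opposite, 1.21% with a rise and 2.45% with a fall in MDA-MB-231. TRIM28 itself was opposite, with 0.35 ± 0.09 and -0.34 ± 0.07. Many of these genes are near copies on chromosome 19, and reads shared between them make single members uncertain.

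Transcripts of the mitochondrial genome responded lower in SUM159PT for 6 of 13 and higher for 0 by edgeR (also 0 at an unadjusted p under 0.05, with DESeq2 and with voom). Their median log2 fold changes were 0.25 in MDA-MB-231 and -0.27 in SUM159PT. In MDA-MB-231 5 of the 13 rose and 1 fell, and in SUM159PT 0 rose and 6 fell. The mitochondrial share of total counts overlapped in MDA-MB-231, at 1.26 to 1.94% with siNS and 1.45 to 1.79% with siYES1. In SUM159PT it was 2.14 to 2.50% with siNS and 1.79 to 2.10% with siYES1. MT-ND1 (0.36 and -0.32) and MT-ND2 (0.39 and -0.42), subunits of complex I, were opposite, though both have nuclear copies that can share reads. Of 44 nuclear genes of the respiratory chain 4 were higher in SUM159PT and 0 lower by edgeR (3 lower at an unadjusted p under 0.05, and 0 with DESeq2 and with voom). The higher share, 9.09%, was near the 11.3% over all genes tested, of which 11.7% were lower. With total counts the balance turned, with 1 higher and 4 lower. Of 57 ribosomal protein genes 1, RPL22, was called, with 0.13 and -0.16, and 7 were lower with total counts. Ribosome biogenesis had 10 of 33 lower and 1 higher, and core spliceosome genes 12 of 42 lower, with the splicing factor PRPF19 (0.47 and -0.27) opposite, though not under all 4 scalings.

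Interferon-response genes responded lower in SUM159PT for 13 of 39 and higher for 4. HERC5, an enzyme of ISG15 conjugation, had 0.55 ± 0.08 in MDA-MB-231 and -1.82 ± 0.59 in SUM159PT, while STAT2, which carries the interferon signal, had -0.30 ± 0.07 and 0.50 ± 0.10. Both were opposite, in different directions. HERC5 stood low in SUM159PT, at 0.739 to 1.496 CPM with siNS and 0.0535 to 0.582 CPM with siYES1. The size of its fall there is thus uncertain. The Polycomb subunits CBX2 (0.27 and -0.95) and CBX8 (0.31 and -0.64) rose and fell, but not under all 4 scalings. Among 244 solute carriers 33 were higher (13.5%) and 29 lower (11.9%), near the 11.3% and 11.7% over all genes tested. Of these carriers 10 were opposite, where 3.66% of all genes tested in all 3 fits were. Examples were the glucose-6-phosphate transporter relative SLC37A2 (-0.72 and 0.98) and the bicarbonate transporter SLC4A7 (-0.68 and 0.63). Of 64 Rab GTPases 17 were higher and 5 lower, with RAB3B (-1.13 and 1.25) and RAB10 (-0.17 and 0.33) opposite, the second not under all 4 scalings.

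Large differences between lines also came from genes that were not opposite. LMTK3, a kinase of the lemur family, fell in both lines (-0.90 and -4.33), with the greatest negative difference among coding genes at 5 CPM or more in each line, -3.43 ± 0.31. ID3, an inhibitor of helix-loop-helix factors and a BMP target, rose in MDA-MB-231 and was not called in SUM159PT (2.84 and -0.06), where its sign turned without siNS replicate 1 (0.14, not called). Of 26 BMP and TGF-beta targets 7 were higher in SUM159PT and 9 lower, among them ATOH8 (2.27 and -0.19) and ID1 (1.97 and 0.22), and the opposite members were the BMP signal carrier SMAD9 (1.16 and -0.62) and SMAD7. Without SUM159PT siNS replicate 1 the SUM159PT value was 0.00715 for ATOH8, and ID1 was called there, at 0.29. GGT5 fell in SUM159PT and was not called in MDA-MB-231 (-0.03 and -2.78), and TUBA1A, an alpha tubulin with close copies, fell in MDA-MB-231 (-2.84 and -0.33). TUBA1A was not called in SUM159PT, but it was called lower there with total counts (-0.51) and without siNS replicate 1 (-0.17). Of 540 genes that moved the same way, KLF2 rose more in SUM159PT (1.37 and 3.05) and LMNB1, a lamin, more in MDA-MB-231 (2.28 and 1.15). EDN2, an endothelin, fell more in MDA-MB-231 (-3.08 and -1.03), and CITED4 more in SUM159PT (-0.67 and -3.04).

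The gap between the lines was wider with siYES1 for most opposite genes, a share near that of other called genes. On libraries scaled together over all 16, the difference in level between the lines was wider with siYES1 than with siNS for 316 of the 464 opposite genes and narrower for 148. The share that widened was 68.1%, against 69.3% of 2992 other genes called in the interaction and 59.7% of all 12689. The median size of the gap went from 0.88 to 1.34 on the log2 scale, and for 117 genes the line with the higher level changed. In the controls 238 of the 464 were higher in SUM159PT.

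The 2 kinds of opposite genes differed a little in other features, given here without a test. Coding genes that fell in MDA-MB-231 had a median of 65.1 CPM in MDA-MB-231 siNS and 68.8 CPM in SUM159PT siNS. Those that rose had 32.8 and 32.6 CPM, against 37.1 and 32.2 CPM for all coding genes tested. Median exon lengths were 5707 and 4999 bases, against 5262. Zinc finger genes were 6.12% of those that rose and 0.656% of those that fell, against 3.26%.

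Promoter words were counted in the 157 promoters of 108 genes that rose in MDA-MB-231 and the 408 of 247 genes that fell, beside 13576 promoters of coding genes tested. E2F words stood in 9.55% of the first and 5.88% of the second, against 7.68%. The hypoxia word ACGTG stood in 23.6% and 29.4%, against 25.6%. CCAAT stood in 43.9% and 34.3%, against 34.7%, and the GC box GGGCGG in 74.5% and 63.5%, against 67.1%. The E-box CACGTG, which holds ACGTG, stood in 14.0% and 7.35%, against 9.38%. The CRE word TGACGTCA stood in 0 of the 157 and in 2.70% of the 408, against 2.87%. The AP-1 word TGANTCA stood in 4.46% and 7.11%, against 5.33%, and the TEAD word GGAATG in 13.4% and 12.01%, against 11.3%. The CHR words TTTGAA and TTCGAA stood in 10.2% and 10.8%, against 11.7%.

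The number of opposite genes moved with scaling and with single libraries. TMM over all 16 libraries gave 560, of which 103 rose in MDA-MB-231 and 457 fell, and 414 were among the 464. Total counts gave 465, of which 278 rose and 187 fell, and 284 were among the 464. Without SUM159PT siNS replicate 1 there were 533, of which 434 were shared. Leaving out single libraries gave 336 (without SUM159PT siYES1 replicate 1) to 541 (without SUM159PT siNS replicate 2). In all 25 alternatives without a size threshold 187 genes were opposite, 57 that rose and 130 that fell in MDA-MB-231.

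**Figure D5:**
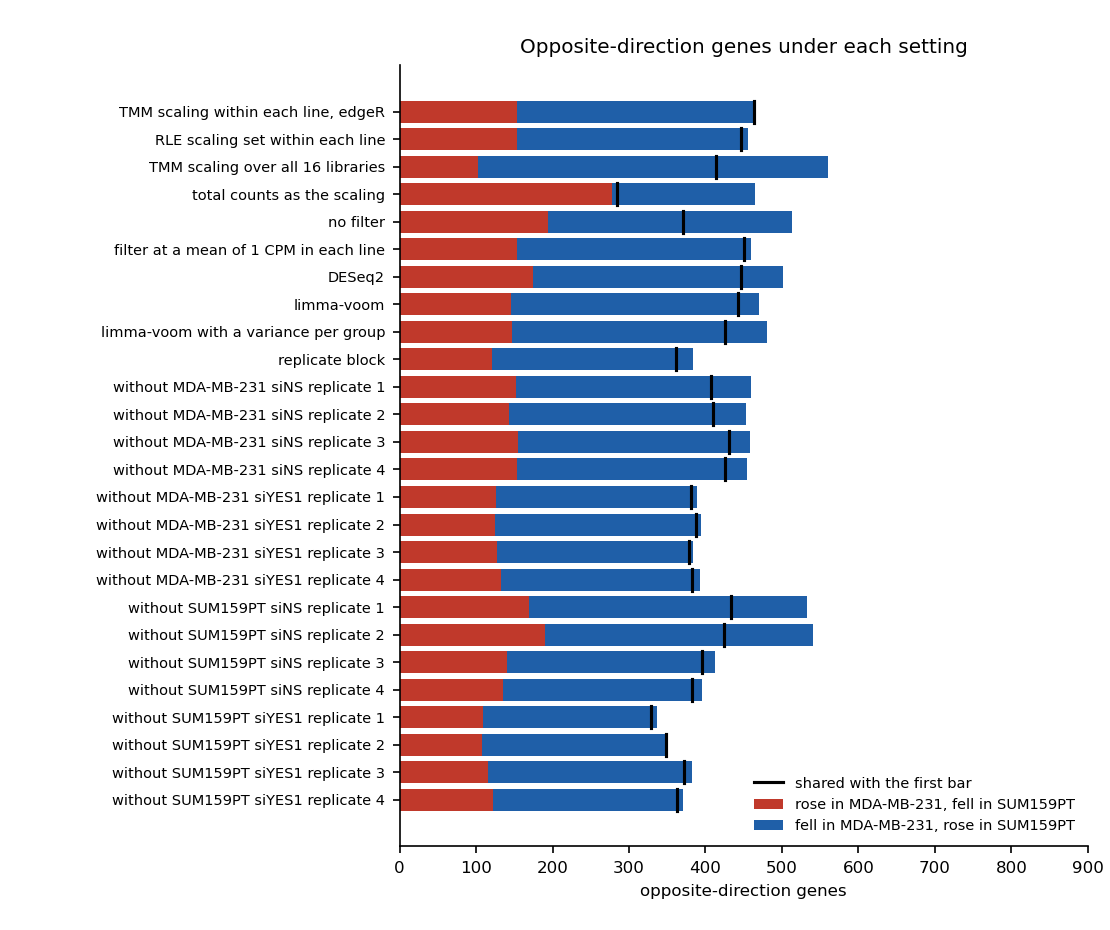
Number of opposite genes (x axis) under each setting (rows), red for genes that rose in MDA-MB-231 and blue for those that fell, with a black mark at the number shared with the first bar. The totals lie between 336 and 560, and total counts as the scaling turns the balance, with 278 red and 187 blue.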

How the data were processed

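RNA was sequenced from 16 libraries, 4 in each of 4 groups. The authors deposited 1 table of read counts per gene for each line, in whole numbers, with 4 siNS and 4 siYES1 columns. HISAT2 2.0.5, featureCounts 1.5.0-p3 and genome build hg38 are named per the submitters' processing notes. For the annotation release and the strand setting the sources used here give nothing, and the library protocol in the labels names both directional and non-directional synthesis, so overlapping antisense genes cannot be told apart. Columns were matched to samples by name, and groups came from the titles. All 58735 gene IDs matched GENCODE 29 names, and 26050 genes had 0 counts in all libraries.

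The tables were joined on gene ID. Genes were filtered with filterByExpr, scaled with TMM factors set within each line and tested with edgeR's quasi-likelihood test (edgeR 4.0.16, limma 3.58.1, R 4.3.3), with Benjamini-Hochberg adjustment over all genes tested and calls at an adjusted p under 0.05. The interaction used all 16 libraries, and each line's response its own 8. SE is the log2 fold change divided by the square root of F. The code was tested on simulated data. Alternatives were RLE scaling, TMM over all 16 libraries, total counts, 2 other filters, DESeq2 1.42.0, limma-voom with and without a variance per group, a replicate block, a 1.5-fold threshold (glmTreat) and leaving out each library.

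The members and lists were chosen with earlier results of these data known, and 2 lists (COPII and COPI coats, ESCRT-III and VPS4) after values were seen. Named genes were YES1 and 9 key genes, the 12 opposite coding genes of each kind with the largest smaller fold change, at 5 CPM or more and with no overlap of libraries, the 5 largest differences of each sign, the 3 largest same-direction genes of each of 4 combinations and, in each list, all opposite members and up to 3 other called genes. The vesicle coat and ESCRT genes, LURAP1L, KRT34, KRT86, IL12A, TLE2 and AC091182.2 fall outside this rule and were named after their values were seen. A gene that the rule selects is not reported here. Promoters came from RefSeq (GRCh38.p14), from 250 bases before to 50 after each gene's start.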

Additional observations from a re-analysis of the deposited data

Results flagged for a closer look

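The responses of the 2 lines differed by the interaction test for 3757 genes, of which 464 were opposite. Among the genes named in the results, the difference between lines (SUM159PT minus MDA-MB-231, log2, edgeR) was -0.76 for YES1 itself, -1.97 for SAA1, -2.13 for UNG, -1.36 for MCM4 and -1.30 for KRT8. It was 2.24 for CCBE1, 1.60 for HIF1A, 2.53 for WIPI1 and 1.03 for EGFR.

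Single libraries far from the other 3 of their group were found 14 times in 140 groups of 4 values tested with Dixon's ratio; chance gives about 1 in 20 groups. SUM159PT siNS replicate 1 held the highest values of UNG (33.5 CPM), MCM4 (132.0 CPM) and E2F2 (20.9 CPM) in its group and the lowest share of counts in the 10 most abundant genes (5.12%). In the same group replicate 2 had the lowest mitochondrial share of counts (2.14%) and replicate 3 the highest ADPRHL1 (25.7 CPM). In SUM159PT siYES1, replicate 4 had the highest total count (23451253) and the lowest E2F2 (4.00 CPM), and replicate 2 the highest ARRDC2 (23.3 CPM). In MDA-MB-231 siNS, replicate 2 had the highest share of counts in the 10 most abundant genes (4.45%) and the lowest TMM factor (1.01), and replicate 3 the lowest FBXO32 (49.7 CPM). In MDA-MB-231 siYES1, replicate 4 had the highest mitochondrial share (1.79%) and replicate 3 the lowest E2F2 (12.8 CPM). The part of these libraries in other results was not tested beyond leaving each one out.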

How the results depend on the processing

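Against a 1.5-fold change (glmTreat), 688 genes passed in the interaction, and there were 1770 MDA-MB-231 response calls, 1137 SUM159PT response calls and 6 opposite genes; this test asks for a larger effect by construction. Under the other alternatives these 4 totals stayed within 1.5 times those reported, but with total counts as the scaling their split did not: 278 opposite genes rose and 187 fell in MDA-MB-231 (153 and 311 as reported), and 1397 genes rose and 4163 fell in SUM159PT (2575 and 2749). Leaving out 1 library gave 3114 (without MDA-MB-231 siYES1 replicate 4) to 4319 (without SUM159PT siNS replicate 2) interaction calls and 336 to 541 opposite genes. DESeq2 called 4332 genes in the interaction, limma-voom 3719, and 3832 with a variance per group. No filter gave 3936 and a filter at 1 CPM 3622. The replicate number shared across treatments was used as a replicate block in 1 fit, which gave 3345 interaction calls and 384 opposite genes (362 of the 464). The numbers did not pair the libraries: the correlations of same-numbered deviations were 0.0173, -0.0715, -0.0427 and -0.0577 in MDA-MB-231 and -0.0405, 0.0435, -0.0139 and -0.00614 in SUM159PT. Of the differences between lines for single genes chosen by the naming rule, over all alternatives, 7089 kept their side of the threshold, 426 kept the direction and lost the call and 1 gained one, and no difference called in either fit turned its sign. Within single lines more moved: with total counts 29 of 209 SUM159PT calls of these genes were lost, 11 were gained and 16 signs turned, none of them called, and in MDA-MB-231 9 of 233 were lost, 5 gained and 2 signs turned. The 4 libraries of a group are technical replicates by the design text, so the spread between cultures was not measured, and small opposite changes depend on the scaling.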
